A study of Homo sapiens with 2 samples.

Results

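A set of 10 genes that reports on signalling through the kinase ERK was followed in glioma cells: the MAP kinase phosphatases DUSP4, DUSP5 and DUSP6, the Sprouty genes SPRY1, SPRY2 and SPRY4, the Sprouty-related genes SPRED1 and SPRED2, and the ETS transcription factors ETV4 and ETV5. They were taken by symbol, and all 10 were found among the 58735 genes measured. The cells were U87MG, a human glioblastoma line in long use, kept as spheres in stem cell medium for 1 week before RNA sequencing. A control library came from cells with the pGIPZ-CTRL lentivirus, and the other was labelled as carrying a TRIP13 shRNA lentivirus. Both were selected with puromycin as stable clones, and whether a clone or a mixed population was sequenced is not given in the sources used here. Each group held 1 library. Without replicates there was nothing to test, and the values below compare 2 libraries, not 2 conditions.

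ERK is the last kinase of the RAS, RAF and MEK cascade, which growth factor receptors switch on. Active ERK raises transcription of its own brakes, among them phosphatases that remove its activating phosphates and Sprouty and SPRED proteins that act on the pathway at or above RAF, together with the ETS factors ETV4 and ETV5. Transcripts of these genes are for that reason widely used as a readout of ERK output, and in gliomas the pathway is commonly driven by altered growth factor receptors or by loss of the RAS inhibitor NF1.

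TRIP13, an AAA+ ATPase that remodels the checkpoint protein MAD2, checks the labels. It stood at 11.9 FPKM in the control library and at 23.1 FPKM in the library labelled TRIP13 shRNA, 1.95 times higher (95% counting interval 1.79 to 2.12). This goes against the label, so every direction below is one between libraries as labelled. FPKM relates the reads of a gene to its length and to a library total. Read totals were 18871063 for the control library and 19903836 for the library labelled TRIP13 shRNA, and the deposited FPKM are not corrected for that depth ratio of 1.055. Mitochondrial genes took 4.4% of the reads there and 4.0% in the control library. Pairs of levels or reads joined by "against" give the library labelled TRIP13 shRNA first and the control second. Of 10 markers of astrocytes and glioma, which summed to 501 against 569 FPKM, VIM was abundant (427 against 442 FPKM), while AQP4 had 0 reads in both libraries, SOX2 had 1 against 2 reads and GFAP 28 against 92. S100B lay the other way with 4 against 0 reads. Of these 10, 6 passed the FPKM filter described below, each with a log2 ratio below 0, and 2 were at least 2-fold lower by the size rule given there: SOX9, a glial transcription factor, with 57 against 335 reads (5.88-fold lower, 4.43 to 7.93), and OLIG2, a factor of the oligodendrocyte lineage, with 22 against 177 (8.05-fold, 5.15 to 13.2). The intermediate filament gene NES was 2.37-fold lower (2.03 to 2.76). Over all protein-coding genes past that filter, 4.19% were lower by the size rule and 39.6% had a log2 ratio below 0. Markers of fibroblasts and pericytes summed to 80.1 against 116 FPKM, most of it from COL1A1 and COL1A2. Of these 5, 4 passed the filter, each with a log2 ratio below 0, and 0 of the 5 were at 0. PDGFRB (7.10-fold) and LUM (3.64-fold) were lower by the size rule, beside the same 4.19% of all tested genes. DCN, under the filter, had 33 against 386 reads. The 4 endothelial markers summed to 2.88 against 5.24 FPKM, mostly KDR, with PECAM1 at 1 against 45 reads, VWF at 6 against 75 and CDH5 at 0 against 6. The 5 of microglia and macrophages summed to 3.64 against 4.30. Most of this was CSF1R at 330 against 374 reads (ratio 0.882, 0.759 to 1.03), while PTPRC had 0 against 11 reads and AIF1 0 in both. The 4 of oligodendrocytes summed to 0.108 against 0.281, with MOG at 0 in both. The 5 of neurons summed to 9.78 against 11.1, with SYT1 at 108 against 243 reads and GAD1 the other way at 262 against 164. Their part in the results below was not tested. In RNA from a whole culture, fewer cells of a type and less RNA per cell cannot be told apart.

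The promoters of the genes are shown first, because ETV4 and ETV5 belong to the ETS family, whose members bind DNA around the letters GGAA, and several ERK feedback genes are described as ETS targets. Windows were taken from RefSeq, build GRCh38.p14, for the 6 genes with an entry by symbol, using the start nearest the 5′ end of the deposited gene: DUSP6, SPRY1, SPRY2, SPRY4, SPRED1 and SPRED2. DUSP4, DUSP5, ETV4 and ETV5 are named only. Each sequence is the gene's own strand, 5′ to 3′, and lies before the start. Capitals mark GGAA or its complement TTCC. For SPRY1, SPRY2, SPRY4 and SPRED2 the stretch is the longest one outside annotated exons. For DUSP6 and SPRED1 these bases lie inside an annotated exon, counting exons of any gene on either strand, and only the 30 bases with the most matches are given. SPRED1 and SPRED2 are shown for contrast, since their levels differed least between the libraries.
DUSP6: ggggcttatccggagcGGAAaTTCCtTTCC
SPRY1: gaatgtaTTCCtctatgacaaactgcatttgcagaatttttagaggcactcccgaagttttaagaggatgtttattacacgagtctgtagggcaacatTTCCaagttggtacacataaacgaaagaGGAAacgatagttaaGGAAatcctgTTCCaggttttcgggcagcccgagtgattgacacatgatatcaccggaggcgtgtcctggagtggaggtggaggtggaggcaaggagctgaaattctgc
SPRY2: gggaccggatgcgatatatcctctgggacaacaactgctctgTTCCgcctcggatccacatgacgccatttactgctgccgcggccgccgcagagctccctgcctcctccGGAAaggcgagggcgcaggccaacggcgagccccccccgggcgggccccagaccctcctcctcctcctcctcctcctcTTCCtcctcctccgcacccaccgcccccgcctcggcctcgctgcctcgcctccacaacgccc
SPRY4: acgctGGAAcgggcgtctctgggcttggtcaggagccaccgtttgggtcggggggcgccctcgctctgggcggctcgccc
SPRED2: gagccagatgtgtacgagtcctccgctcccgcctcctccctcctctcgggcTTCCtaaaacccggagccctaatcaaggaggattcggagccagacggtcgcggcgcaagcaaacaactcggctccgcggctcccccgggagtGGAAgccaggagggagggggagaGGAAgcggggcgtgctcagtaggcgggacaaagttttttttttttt
SPRED1: tgcTTCCtcctcgccgcatccctgagGGAA
The stretches are chr12:89352642-89352671 (minus strand), chr4:123396545-123396794 (plus), chr13:80341127-80341376 (minus), chr5:142324418-142324497 (minus), chr2:65432638-65432849 (minus) and chr15:38252751-38252780 (plus). Those of DUSP6, SPRY4 and SPRED1 lie inside the span of the deposited gene, so the start used there is not its 5′ end. The start used also differs from the deposited 5′ end for SPRED2, where it lies inside the span, and for SPRY2, where it lies outside. Over the 250 bases before the start, searched on both strands, GGAA was found in 6 of 6 genes, with 6 matches in DUSP6, 5 in SPRY1, 4 in SPRED2, 3 in SPRY2 and in SPRED1, and 2 in SPRY4. It is also found in 92.7% of 35116 windows of this length, so its presence sets these genes apart from few others. The longer ETS sequence CCGGAA, which contains GGAA, was found in 14.5% of all windows and in 1 of the 6, SPRY2, beginning 142 bases before the start. The AP-1 sequence TGANTCA was found in 6.57% of all windows and in 0 of the 6. TGACG, a partial cyclic AMP response element, was found in 21.2% of all windows and in SPRY2 and SPRY4, 190 and 68 bases before the start. DUSP6 and SPRY1, with the largest fold differences between the libraries, held the most GGAA matches, while SPRED2 held more than SPRY2 and SPRY4. With 6 genes and a sequence found in most windows, these counts cannot decide whether they go with the differences, and this was not tested. A match is a description of the letters and not a bound site.

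Of the 10 genes, 9 had fewer reads in the library labelled TRIP13 shRNA, beside 39.6% of all protein-coding genes past the filter on FPKM. DUSP6 had the lowest ratio of those of the 10 that passed this filter. The phosphatases, Sprouty genes and ETV4 stood lower there, while SPRED1, SPRED2 and ETV5 were nearly level. Summed over the 10 genes, the level was 237 FPKM in the control library and 123 in the library labelled TRIP13 shRNA. Differences were expressed as the log2 ratio, that is the log2 of FPKM + 1 in the library labelled TRIP13 shRNA over FPKM + 1 in the control, which understates those of weakly expressed genes. A size rule counted log2 ratios of 1 or more, or of -1 or less, among the 10671 of 19951 protein-coding genes whose mean FPKM reached 1. Of the 10 genes 9 passed that filter and SPRY1 did not. The rule called 2 of the 9 lower, DUSP6 and DUSP5 (22.2%), against 4.19% of all tested genes, and 0 of the 9 higher, against 2.17%. The median log2 ratio was -0.73 over the 9 genes and -0.76 over all 10, beside 0.12 over all tested genes.

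**Figure D1:**
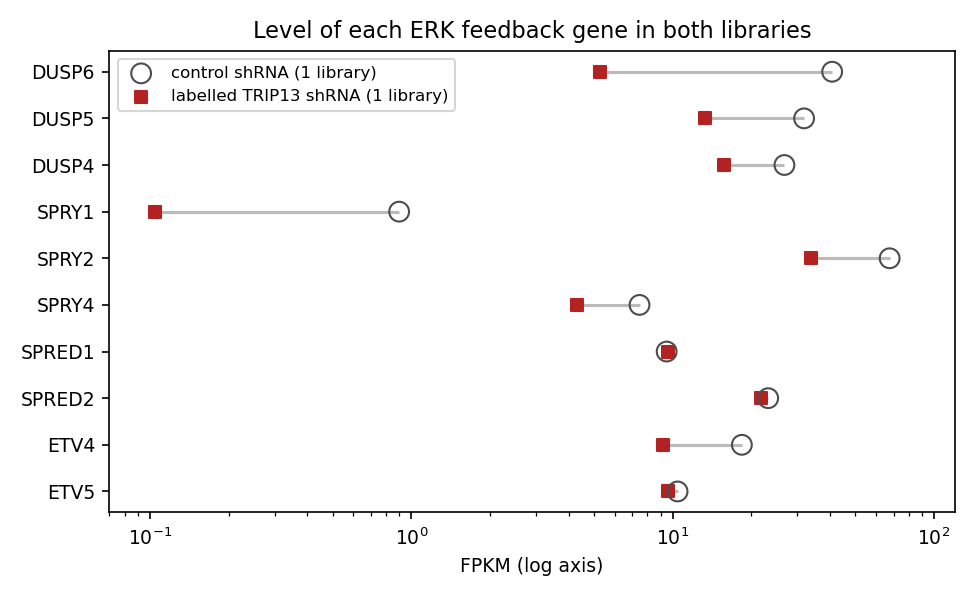
FPKM of each ERK feedback gene on a log axis, in the control library (open circles) and the library labelled TRIP13 shRNA (squares), 1 library each. DUSP6 spans 5.28 to 40.7 FPKM, while the symbols of SPRED1 lie on each other at 9.61 and 9.48.

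DUSP6 is the cytoplasmic phosphatase that acts selectively on ERK. DUSP6 (ENSG00000139318, hg38 chromosome 12, 89347232 to 89353271, minus strand) had 40.7 FPKM in the control library, from 3658 reads, and 5.28 FPKM in the library labelled TRIP13 shRNA, from 474 reads. It was 7.72-fold lower (95% counting interval 7.01 to 8.51), with a log2 ratio of -2.73, and 35 of the 10671 tested genes (0.328%) had a lower one. In the control library DUSP6 ranked as number 2 of the 10 genes by FPKM, and in the other library as number 8. Counting intervals are exact (Clopper-Pearson, from the split of reads between the libraries) and carry no error other than that of counting. They take each read as separate. The reads had no molecular identifiers and need not be separate molecules, so even the counting error may be larger than shown.

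DUSP5, the nuclear phosphatase selective for ERK (chromosome 10, 110497838 to 110511544, plus strand), had 31.8 FPKM in the control library and 13.2 in the other, from 1613 and 671 reads. It was 2.40-fold lower (2.20 to 2.63), with a log2 ratio of -1.20. DUSP4, a nuclear phosphatase that acts on ERK and also on the stress kinases JNK and p38, had 26.8 and 15.7 FPKM, from 3764 and 2212 reads, and was 1.70-fold lower (1.61 to 1.79). Its log2 ratio of -0.73 did not reach the size rule. All 3 phosphatases were therefore lower, but by unequal amounts, and none of their counting intervals overlapped.

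The makeup of the phosphatase group changed with it, which can be read without any scaling between libraries. DUSP6 made up 41.0% of the summed FPKM of the 3 phosphatases in the control library and 15.4% in the library labelled TRIP13 shRNA. DUSP4 went from 26.9% to 45.9% and DUSP5 from 32.0% to 38.7%. Within the control library DUSP6 stood at 1.52 times the FPKM of DUSP4, and within the other library at 0.336 times, a quotient 4.54-fold lower (exact counting interval 4.06 to 5.07). Against DUSP5 the quotient was 3.21-fold lower (2.81 to 3.67), and that of DUSP5 to DUSP4 was 1.41-fold lower (1.27 to 1.57). The order of the 3 was DUSP6, DUSP5, DUSP4 in the control library and the reverse in the other.

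Sprouty proteins hold back receptor signalling to ERK. SPRY2 (chromosome 13, 80335976 to 80340951, minus strand) was the most abundant of the 10 genes in both libraries, at 67.6 FPKM in the control library and 33.8 in the library labelled TRIP13 shRNA, from 3981 and 1992 reads. It was 2.0-fold lower (1.89 to 2.11). Its log2 ratio of -0.98 lay just outside the size rule, and passed it at -1.05 or below under each of the 4 other scalings, which are named with their shifts below. SPRY4 (chromosome 5, 142310427 to 142326455, minus strand) had 7.47 and 4.30 FPKM, from 950 and 547 reads, and was 1.74-fold lower (1.56 to 1.93).

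SPRY1 was weakly expressed, with 0.898 FPKM from 69 reads in the control library and 0.104 FPKM from 8 reads in the other. It lay under the FPKM filter and was not among the genes tested (chromosome 4, 123396795 to 123403760, plus strand). Its FPKM was 8.63-fold lower, with an interval of 4.14 to 20.8 that reflects the few reads. The log2 ratio of -0.78 depends on the pseudocount at this level, and was -0.21 with 5 added and -3.11 with none. SPRY2 carried 89.0% of the summed FPKM of the 3 Sprouty genes in the control library and 88.5% in the other, so the group's makeup was nearly level although its sum went from 76.0 to 38.2 FPKM. The quotient of SPRY2 to SPRY4 fell between the libraries by a factor of 1.15 (1.02 to 1.30), and that of SPRY1 to SPRY2, which rests on the few reads of SPRY1, by a factor of 4.32 (2.07 to 10.4).

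SPRED proteins bring the RAS inhibitor neurofibromin to the membrane. SPRED1 (chromosome 15, 38252326 to 38357249, plus strand) had 9.48 FPKM in the control library and 9.61 in the library labelled TRIP13 shRNA, from 1518 and 1539 reads. The ratio was 1.01 (0.944 to 1.09), and its direction is not given, because the log2 ratio of 0.02 turned to between -0.04 and -0.11 under the other scalings. SPRED2 (chromosome 2, 65310851 to 65432637, minus strand) had 23.2 and 21.8 FPKM, from 2317 and 2182 reads, which is a ratio of 0.942 (0.888 to 0.999). The quotient of SPRED1 to SPRED2 was 1.08 times that of the control library (0.981 to 1.18), not distinguishable at this depth. Against SPRED2, SPRY2 was 1.88-fold lower (1.74 to 2.04) and DUSP6 was 7.27-fold lower (6.49 to 8.15), again with no scaling between the libraries involved.

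ETV4 and ETV5 are closely related ETS factors that act at the end of growth factor pathways. ETV4 (chromosome 17, 43527844 to 43579620, minus strand) had 18.4 FPKM in the control library and 9.20 in the library labelled TRIP13 shRNA, from 1286 and 643 reads, a ratio of 0.50 (0.454 to 0.550). The log2 ratio was -0.93. ETV5 (chromosome 3, 186046308 to 186110318, minus strand) had 10.4 and 9.60 FPKM, from 1174 and 1079 reads, a ratio of 0.919 (0.845 to 0.999). The pair thus separated: ETV4 stood at 1.76 times the FPKM of ETV5 in the control library and at 0.959 times in the second one, a quotient 1.84-fold lower (1.62 to 2.09). In the library labelled TRIP13 shRNA the counting intervals of the FPKM of ETV4, ETV5 and SPRED1 overlapped with those next to them in the order of levels, and in the control library those of ETV5 and SPRED1 did. All other neighbours in the order of levels were apart beyond counting error.

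**Figure D2:**
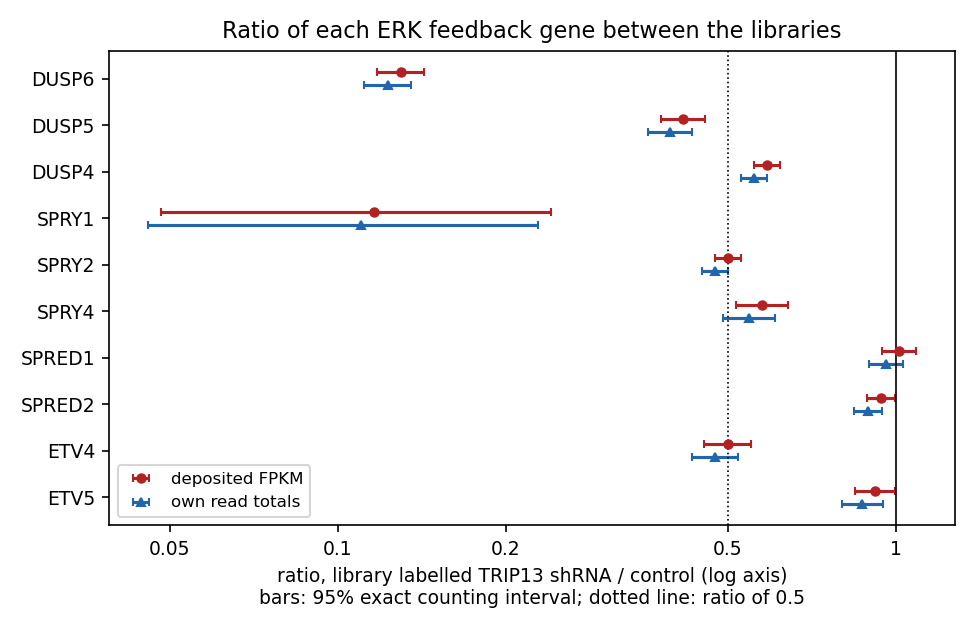
Ratio of each ERK feedback gene between the library labelled TRIP13 shRNA and the control library on a log axis, with 95% exact counting intervals as bars, from the deposited FPKM (circles) and with each library divided by its own read total (triangles). DUSP6 lies at 0.130 and SPRED1 at 1.01, and with own totals the interval of SPRED1, 0.895 to 1.03, is the 1 that still holds 1.

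Counting error alone left 9 of the 10 ratios below 1 and 1 that held it, with the deposited FPKM and with own totals alike. The share of all tested genes with an interval below 1 was not computed, so this count is not read as particular to these genes. Of all tested genes 39.6% had a log2 ratio below 0 on the deposited scale. The upper ends for ETV5 and SPRED2 were 0.999 on the deposited scale, and 0.947 for both with own totals. These intervals hold no variation between cultures or library preparations. Both the count of called genes and the log2 ratios depended on the scaling and the pseudocount. The count stayed at 2 with pseudocounts of 0.1 and 5 (6.34% and 1.69% of all tested genes), without a filter (2.38%) and at a mean FPKM of 5 or more (4.0%). Without a pseudocount it was 3 of 9, with ETV4 added, against 6.72%. Dividing by own totals, or scaling on the reads left after removal of mitochondrial and the 50 most abundant genes, called 3 of 9, with SPRY2 added, against 4.81% and 4.73% of all tested genes. Setting the median ratio of tested genes to 1 added ETV4 and called 4 of 9, against 5.32%, and rescaling to TPM called 5 of 10, SPRY1 among them, against 7.85%. The filter and pseudocount were kept under TPM, where 12183 genes reached the filter. Among all tested genes past the size rule 34.2% were higher, and 25.8% with own totals, 27.2% without the abundant genes, 19.7% with the median ratio of 1 and 22.5% under TPM. The last 2 settings shifted the median log2 ratio of the tested genes by -0.12 and -0.11.

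**Figure D3:**
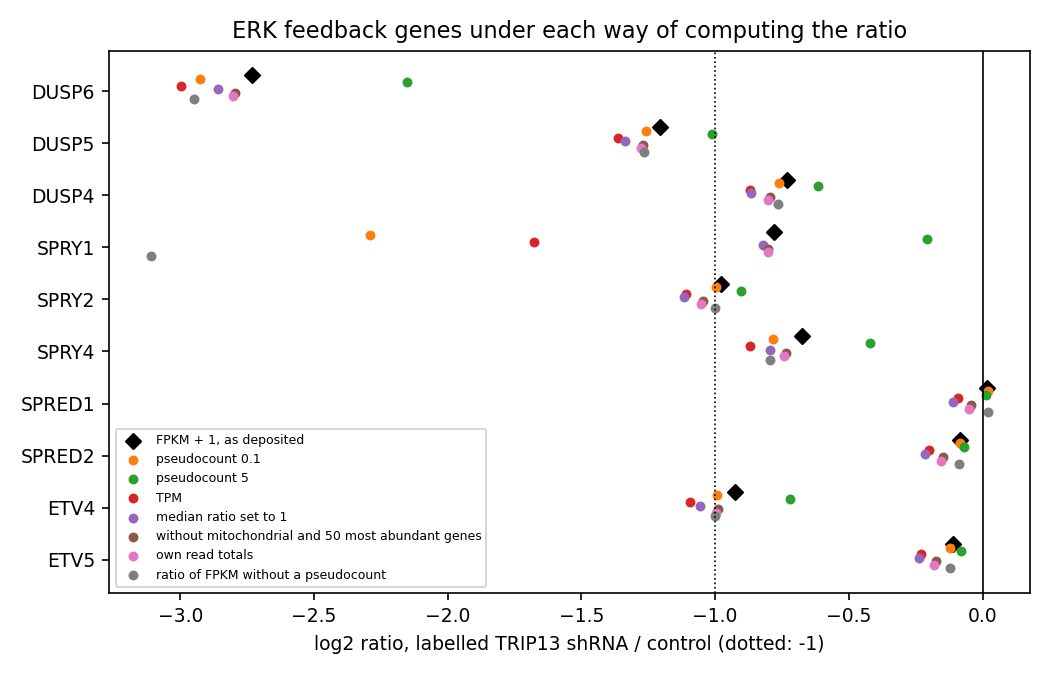
Log2 ratio of each ERK feedback gene under each scaling and pseudocount, library labelled TRIP13 shRNA over control. DUSP6 stays between -2.996 and -2.15 and DUSP5 between -1.36 and -1.01, while SPRY1, with few reads, runs from -3.11 to -0.21.

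Several genes lie over or beside an ERK feedback gene. AC024909.2, an antisense gene whose exons cover 1875 bases, or 40.5%, of the exon length of DUSP6, had 3 against 54 reads. Its ratio of 0.0556 (0.0111 to 0.171) lay the same way as that of DUSP6. The strand setting of the counting is not given in the sources used here, so reads of the 2 genes cannot be told apart where they overlap. SPRY4-AS1, which overlaps the SPRY4 gene but shares no exon base with it, had 69 against 115 reads, a ratio of 0.600 (0.439 to 0.816) beside 0.576 for SPRY4. Also without shared exon bases, the misc_RNA genes RF02038 and RF02039 inside SPRY4 had 6 against 15 and 6 against 4 reads, AC012370.1 inside SPRED2 had 1 against 2, and ETV5-AS1 and RF00017 at ETV5 had 9 against 3 and 2 against 0. DHX8, an RNA helicase gene sharing 68 exon bases (1.89%) with ETV4, lay the other way at 9.50 against 6.42 FPKM. DGKG, a diacylglycerol kinase gene sharing 164 exon bases (2.83%) with ETV5, had 4.498 against 3.07 FPKM. DUSP4, DUSP5, SPRY1, SPRY2 and SPRED1 overlap no other gene of the table.

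For 9 of the 10 genes, all but ETV4, the nearest protein-coding gene on each side was also read. Of 18 such neighbours 13 passed the FPKM filter, and 0 were called lower and 0 higher, against 4.19% and 2.17% of all tested genes, so that few calls would be met among 13 genes at those shares. Their log2 ratios ran from -0.61 (ANKRD50, 1260 kb from SPRY1) to 0.52 (TRA2B, 108 kb from ETV5), with a median of 0.28 beside 0.12 for all tested genes. Beside DUSP6, KITLG had 6.58 against 4.499 FPKM and POC1B 0.855 against 1.37. Beside DUSP5, SMC3 had 28.5 against 23.4 FPKM and SMNDC1 8.54 against 8.13. Each of these 9 ERK feedback genes had a lower log2 ratio than every neighbour of its own that passed the filter. With a pseudocount of 5 this held for 8 of the 9, since SPRY1 then lay at -0.21 and ANKRD50 at -0.40. For SPRY2, SPRY4, SPRED1, SPRED2 and ETV5 the neighbour of only 1 side passed the filter, and SPRED1, SPRED2 and ETV5 were themselves nearly level.

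**Figure D4:**
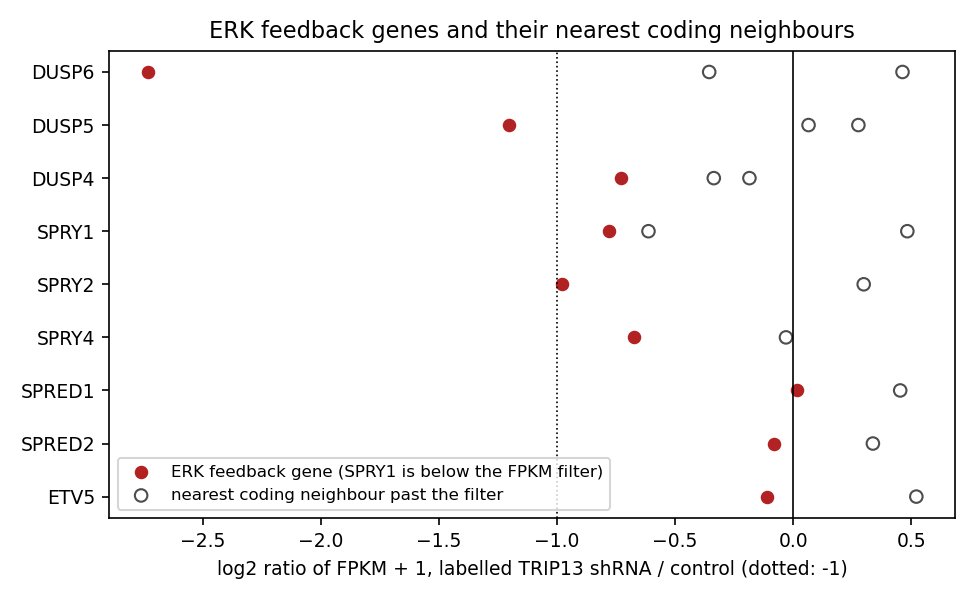
Log2 ratio of 9 ERK feedback genes (filled) and of their nearest protein-coding neighbours past the FPKM filter (open), library labelled TRIP13 shRNA over control, 1 library each. The neighbours lie between -0.61 and 0.52, and the filled point is leftmost in every line at the pseudocount of 1 plotted.

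The other genes of the pathway were taken from 7 lists with 74 genes, of which 60 passed the FPKM filter, 7 were called lower and 0 higher, against 4.19% and 2.17% of all tested genes, with a median log2 ratio of -0.22. The cascade itself was not lower as a group. Of 13 tested genes of the ERK cascade core 8 lay above 0 and 5 below, beside 39.6% of all tested genes below 0. The size rule was passed by 0 of them, and their median of 0.26 stayed between 0.07 and 0.30 over the alternatives. The RAS gene HRAS had 32.8 against 20.5 FPKM and the RAF kinase ARAF 23.7 against 17.1. Lowest were MAPK3, which encodes ERK1, at 16.7 against 24.3 FPKM, a log2 ratio of -0.52, and BRAF at 1.22 against 1.68.

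Adaptors, exchange factors and RAS GTPase-activating proteins had a median of -0.18 over 13 tested genes, with 0 past the size rule. Of the 13, 10 lay below 0, beside 39.6% of all tested genes. The docking protein GAB2 had 1.69 against 3.08 FPKM and the RAS exchange factor SOS1 5.36 against 8.02, while the adaptors GRB2 and FRS2 had 34.1 against 27.9 and 3.79 against 3.11. Of 12 growth factor receptors 5 passed the filter, with a median of -0.19, and 1 was called lower (4.19% of all tested genes), PDGFRB, at 1.74 against 12.4 FPKM, 7.10-fold (6.20 to 8.16). PDGFRB is also a pericyte marker, and its list of fibroblast and pericyte markers is given above. EGFR had 13.8 against 16.8 FPKM, MET 55.1 against 48.4 and IGF1R 2.75 against 2.67. No direction is read for IGF1R, whose log2 ratio of 0.03 turned to -0.07 at the lowest of the scalings. Under the filter, PDGFRA had 3 against 97 reads (32.3-fold lower, 10.7 to 160) and ERBB3 4 against 19. ERBB2, also under it, had 181 against 159 reads, and FGFR2 and FGFR3 had 0 reads in both libraries.

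Among other MAP kinase phosphatases the differences went both ways. Of 8 genes 5 passed the filter, and 2 were called lower, against 4.19% of all tested genes. DUSP16, selective for JNK and p38, had 3.52 against 11.6 FPKM, 3.29-fold lower (2.94 to 3.70). DUSP1, an immediate early phosphatase of ERK, JNK and p38, had 38.1 against 84.4 FPKM, 2.21-fold lower (2.08 to 2.36). DUSP10 had 7.92 against 9.69 FPKM. DUSP14 and DUSP7, the latter a cytoplasmic ERK phosphatase like DUSP6, lay the other way at 16.5 against 10.4 and 6.31 against 4.60 FPKM, and stayed above 0 under each scaling. The lower level was thus not general to ERK phosphatases, since DUSP7 had a ratio of 1.37 (1.22 to 1.54). Other relatives had log2 ratios below 0 in 3 of 3 tested genes, beside 39.6% of all tested genes, and 0 past the size rule. SPRED3 had 2.70 against 5.12 FPKM, and IL17RD, a receptor-like inhibitor of FGF signalling, 1.19 against 1.84. ETV1, the third member of the ETV4 and ETV5 group, had 14.9 against 19.2.

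Of 12 further transcripts known to respond to ERK 11 passed the filter. The size rule called 4 lower and 0 higher, against 4.19% and 2.17% of all tested genes. The median was -0.89, and 8 of 11 lay below 0, beside 39.6% of all tested genes. Called lower were FOS, an AP-1 subunit, at 1.77 against 11.5 FPKM, the small MAF factor MAFF at 4.82 against 17.8, the ephrin receptor EPHA2 at 3.002 against 10.4 and the immediate early gene IER3 at 73.4 against 177. The median of the list ran from -1.25 to -0.54 over the alternatives. Its lower calls ran from 3 with a pseudocount of 5 (1.69% of all tested genes) to 7 under TPM (7.85%). The list did not move as one. Cyclin D1 (CCND1) had 275 against 142 FPKM and FOSL1, a FOS relative stabilised by ERK, 479 against 259, with log2 ratios of 0.95 and 0.88 that stayed at 0.81 and 0.74 or more under each scaling. CCND1 was 1.94 times higher (1.90 to 1.98), while DUSP6 was 7.72-fold lower in the same libraries. ERK effector kinases and ternary complex factors had a median of -0.23 over 10 tested genes with 0 past the size rule. Under each of the 4 other scalings, and with a pseudocount of 0.1 or none, 1 was called lower. In those settings 4.73% to 7.85% of all tested genes were called lower. With a pseudocount of 0.1 or none, 1 of the list was also called higher. Their ends were RPS6KA2, an RSK kinase, at 5.02 against 10.7 FPKM, ELK3, a ternary complex factor, at 14.9 against 19.4, MKNK1 at 2.72 against 1.85 and RPS6KA4 at 32.0 against 15.8.

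**Figure D5:**
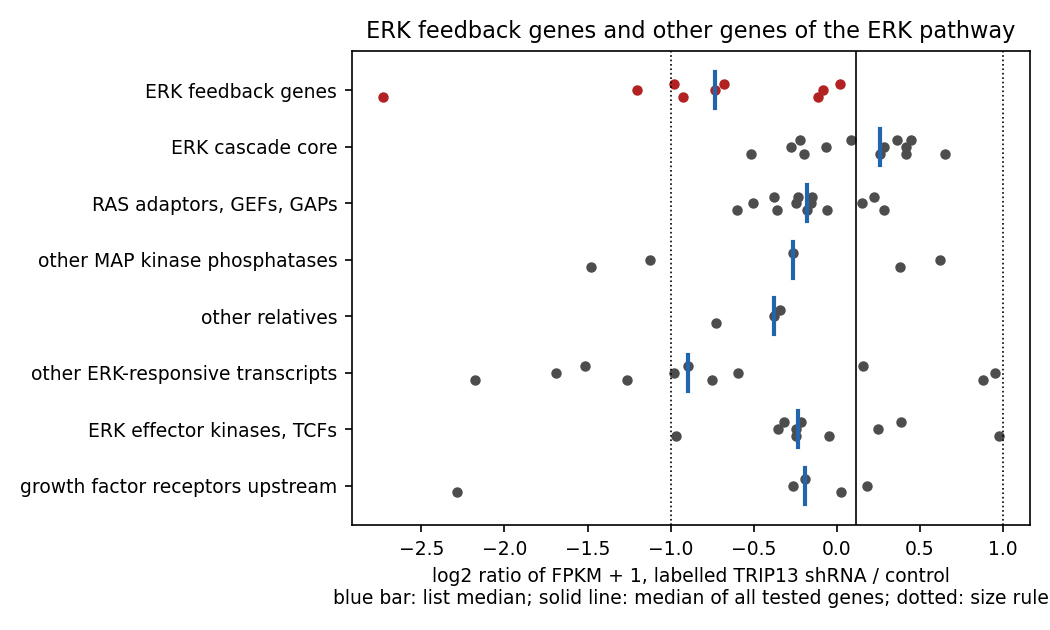
Log2 ratio, library labelled TRIP13 shRNA over control, of each ERK feedback gene past the FPKM filter and of the tested genes of 7 other pathway lists (points), with each list's median (bar), the median of all tested genes (solid line) and the size rule (dotted lines). The ERK feedback genes have a median of -0.73 and the cascade core one of 0.26.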

How the data were processed

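RNA was sequenced from 2 libraries, 1 per group. The authors deposited FPKM values for 58735 genes, and, per the submitters' processing notes, HISAT2 2.0.5, featureCounts 1.5.0-p3, edgeR and hg38 were used, with no role or setting given. Gene positions and strands equalled those of GENCODE release 29 for 58735 genes. FPKM multiplied by gene length gave whole multiples of 51.5981 in both libraries, 100% within 0.001 of a read. These reads gave the totals and the exact 95% intervals, which cover counting error only. Since the step is common to both libraries, a ratio of FPKM is a ratio of reads.

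The pseudocount was 1 FPKM and the filter a mean FPKM of 1. With 1 library per group no test was possible. Alternatives were 4 scalings, genes of every biotype, a pseudocount of 0.1 or 5, dropping the filter and raising it to 5; the ratio without a pseudocount was added after seeing the data. The genes and lists were chosen with earlier results of these data known. Named were TRIP13, the 10 genes, overlapping and neighbouring genes, and list genes past the size rule or among up to 2 at each end. DUSP10, FGFR2, FGFR3, ETV1 and the neighbours shown were named beside them. PDGFRA, ERBB2, ERBB3 and the marker genes were named after their values were seen. The neighbours of ETV4 and 1 gene of the cascade list are not reported here by name or value. The calculations were tested on simulated data. Software was scipy 1.17.1, numpy 2.4.6, matplotlib 3.10.9 and pandas 2.3.3 under Python 3.11.15.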

Additional observations from a re-analysis of the deposited data

How the results depend on the processing

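No paired analysis was possible because there was 1 library per group, so none could be left out either. The count of ERK feedback genes called lower was 2 and stayed 2 with pseudocounts of 0.1 and 5, without a filter and at a mean FPKM of 5 or more. It was 3 with own totals, without the abundant genes and with no pseudocount, 4 with the median ratio set to 1 and 5 under TPM; DUSP5 and DUSP6 were called in each. The median log2 ratio of the genes, -0.73, moved to -0.62 with a pseudocount of 5, -0.80 with own totals, -0.86 with the median ratio set to 1 and -0.98 under TPM. SPRED1 turned from 0.02 to -0.094 under TPM, -0.11 with the median ratio set to 1, -0.044 without the abundant genes and -0.052 with own totals. Over the scalings and pseudocounts, 39 values of single ERK feedback genes stayed inside their counting interval, 27 lay outside it with the same sign and 4, those of SPRED1, turned.

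Of all tested genes 447 were called lower and 232 higher. The counts were 677 and 408 with a pseudocount of 0.1, 180 and 64 with 5, and 717 and 441 with none. Lower calls were 280 at a mean FPKM of 5 or more, 956 under TPM and 737 over every biotype, and higher calls were 139 with the median ratio set to 1. SPRY1, with 8 and 69 reads, is limited by depth.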
